A study of Mus musculus with 6 samples.

Results

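The 45 genes described here encode the DNA replication machinery, from the proteins that mark replication origins to the enzymes that supply deoxynucleotides. They were chosen by name from the roles of their products, with earlier results of these data known. Each of the 45 names had 1 row among the 34745 genes of the deposited table. RNA was sequenced from MLE-12 cells, a line derived from lung tumours of mice that carried the SV40 large T antigen under the human surfactant protein C promoter, so every library came from transformed cells. In the NR4A1 overexpression group (n = 3), MLE-12 cells had received a plasmid carrying the mouse Nr4a1 open reading frame, and in the vector control group (n = 3) they had received the pCMV-SPORT6 vector. The labels give no time after transfection for the RNA, and nothing says that the 3 libraries of a group came from separate cultures, so p-values measure the spread between these libraries, which may be technical. NR4A1 is an orphan nuclear receptor and an immediate early gene product, and the study also measured incorporation of a thymidine analogue in these cells. The comparison therefore asks whether the transcripts of the replication machinery differed between the groups.

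Replication is prepared when the origin recognition complex, CDC6 and CDT1 load the MCM2-7 helicase on chromatin, and it begins in S phase when MCM10, CDC45 and the GINS complex turn the loaded helicase into a moving fork. DNA polymerase alpha with its primase starts each strand, polymerases delta and epsilon extend it with the PCNA clamp, and FEN1 and DNA ligase I join the Okazaki fragments. Many of these genes are transcribed by E2F factors, which the retinoblastoma proteins hold in check and which large T antigen releases by binding those proteins.

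Some of the promoters hold E2F-type words, and every match in the genes that recognise and license origins is printed here to show how alike the words are. RefSeq promoters on GRCm38.p6 were given for 37 of the 45 genes and were searched in the 250 bases before each start, on both strands, for the 8-base words TTTCCCGC, TTTCGCGC, TTTGCCGC and TTTGGCGC, of which matches can overlap each other. At least 1 word was present in 9 of 37 members (24.3%), compared with 386 of 9429 tested genes with a promoter (4.09%) and 583 of 27033 genes in all (2.16%). Among the MCM helicase genes it was present in 3 of 5. The element to which NR4A1 binds as a monomer, AAAGGTCA, was present in 0 of the 37 members, in 88 of the 9429 tested genes (0.933%) and in 419 of the 27033 genes (1.55%). A match is a description of letters in this window and not a measured binding site. In the following windows of 30 bases, written 5′ to 3′ on the strand of the gene, the matched words are in capitals, and the capitals of Mcm5 and of the second Mcm6 window hold 2 overlapping matches.
Orc1, chr4:108579416-108579445, plus strand: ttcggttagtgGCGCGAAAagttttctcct
Orc3, chr4:34614965-34614994, minus strand: ccatgcctcccTTTCCCGCacgccccgcct
Cdc6, chr11:98908002-98908031, plus strand: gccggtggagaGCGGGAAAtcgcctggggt
Mcm5, chr8:75109347-75109376, plus strand: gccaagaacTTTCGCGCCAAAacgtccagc
Mcm6, chr1:128359734-128359763, minus strand: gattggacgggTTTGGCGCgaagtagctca
Mcm6, chr1:128359795-128359824, minus strand: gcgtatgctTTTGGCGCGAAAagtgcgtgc
Mcm7, chr5:138172030-138172059, minus strand: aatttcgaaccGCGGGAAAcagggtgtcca
The Cdc6 and Mcm7 windows lie inside the gene as the deposited table delimits it, because the RefSeq start used here is downstream of the start in the table, and 23 of the 30 bases of the Orc1 window do so too.

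The libraries held 15019038 to 17574340 counts each, and 12941 genes passed the filter on low counts, all 45 replication genes among them. Nr4a1 had 50660 to 68555 counts in the NR4A1 libraries and 428 to 510 in the vector libraries (log2 fold change 7.07, adjusted p = 6.38e-07 by edgeR's quasi-likelihood test), in accord with the labels. Of the epithelial and lung lineage markers, Krt19, Krt8, Cdh1, Sftpc and Nkx2-1 were well covered, Epcam had 2 to 22 counts, and Sftpa1 was at 0 in every library. NR4A1 replicate 2 stood apart from the other 5 libraries. Its summed CPM over 8 endothelial markers was 96.2, compared with 13.3 to 15.8 elsewhere, and over 6 smooth muscle markers it was 321, compared with 1.49 to 2.72. Over 8 fibroblast markers it was 1565, compared with 919 to 1043. Most of that sum elsewhere was Dcn, which was not raised in NR4A1 replicate 2 (878 CPM, 905 to 1031 elsewhere), nor was Lum. The other fibroblast markers were raised there, among them Col1a1 (250 CPM, 4.85 to 17.5 elsewhere) and Col1a2 (268 CPM). Col1a2 was also higher in vector replicate 1 (16.4 CPM) than in vector replicates 2 and 3 (0.835 and 0.566). Kdr, Tie1 and Actg2 had counts in NR4A1 replicate 2 and were at 0 in the other 5. The endothelial marker Tek was not raised in NR4A1 replicate 2 (5.30 CPM, 6.09 to 7.35 elsewhere), and Cldn5 had 3 counts there. Krt18, listed as an epithelial marker, was raised in it (164 counts, 2 to 21 elsewhere). The comparison is therefore also given without NR4A1 replicate 2, which still includes vector replicate 1. The part of other cell types in the results was not tested.

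No replication gene passed the test for a difference between the groups. Past 2-fold with an adjusted p under 0.05, 0 of the 45 members were higher and 0 were lower, when 23 (0.178%) and 0 (0%) of all tested genes were. At an adjusted p under 0.05 alone, 0 members were again called in either direction, when 31 genes (0.24%) were higher and 1 (0.00773%) was lower. DESeq2 and limma-voom also called 0 members at an adjusted p under 0.05. The smallest adjusted p among the members was 0.744, for Lig1, by edgeR's quasi-likelihood test. At an unadjusted p under 0.05, 0 members were higher (all genes 3.83%) and 2 were lower (all genes 2.44%), namely Lig1 and Pola2.

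The 95% intervals show what size of difference these libraries could have held. The interval of the log2 fold change lay within 1.5-fold in either direction for 44 of the 45 genes, with bounds between −0.49 and 0.40. The exception was Fen1, with an interval from −1.43 to 1.20. The standard errors of the other 44 genes ranged from 0.07 to 0.13 on the log2 scale, and the counts behind the 45 genes ranged from 388 to 10262 per library.

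The fold changes of the members leaned to the lower side by a small amount. The log2 fold change was below 0 for 37 of 45 members (82.2%), compared with 48.1% of all tested genes, and its median was −0.11, compared with 0.0078 over all tested genes. It ranged from −0.24 for Tk1 to 0.13 for Orc2. All 3 NR4A1 libraries lay below all 3 vector libraries for 10 of the 45 members (22.2%), when 6.22% of all tested genes did so, and above them for 1 member, when 6.69% of all tested genes did so. Without NR4A1 replicate 2 the median was −0.08 and 34 of 45 were below 0. The groups then did not overlap for 12 members on the lower side (all genes 13.8%) and 1 on the higher side (all genes 13.7%), and 0 members were lower at an unadjusted p under 0.05 (all genes 3.54%), with a smallest adjusted p of 0.597 by edgeR. In bulk RNA, fewer cells in S phase and less of these transcripts per cell cannot be told apart.

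Libraries of the same group also differed from each other. The 45 genes together took 0.744% to 0.790% of the counts in the NR4A1 libraries and 0.801% to 0.854% in the vector libraries. Their summed level was 7663, 7509.7 and 7916 CPM in NR4A1 replicates 1 to 3 and 7986, 8453 and 8294 CPM in vector replicates 1 to 3, so the groups did not overlap, but NR4A1 replicate 3 and vector replicate 1 lay close together. Vector replicate 2 was the highest of the 6 libraries for 23 of the 45 genes, and NR4A1 replicates 1 and 2 were the lowest for 15 and 14. Relative to the vector mean, the median member of a library stood at −0.09, −0.12 and −0.06 (log2) in NR4A1 replicates 1 to 3 and at −0.06, 0.06 and −0.02 in vector replicates 1 to 3. The same libraries differed by gene length. In NR4A1 replicate 1 the median of the shortest 25% of tested genes was −0.09 and that of the longest 25% was 0.10, and in vector replicate 2 they were 0.08 and −0.10, while 12 members were among the shortest 25% and 8 among the longest. The sum over 6 epithelial markers, in which Epcam and Cldn7 were near 0, was 617 to 727 CPM in the NR4A1 libraries and 722 to 833 in the vector libraries, and 3 of the 4 epithelial markers tested had a log2 fold change below 0 (Cdh1 −0.27). The sum over 7 lung lineage markers, in which Sftpa1 was at 0, was 266 to 287 CPM in the NR4A1 libraries and 289 to 300.2 in the vector libraries, without overlap, and 3 of the 4 tested were below 0 (Nkx2-1 −0.32). Cdh1 and Nkx2-1 each had a smaller unadjusted p than any of the 45 members, with adjusted p of 0.672 and 0.594 by edgeR. The other tested epithelial markers Krt8, Krt19 and Krt18 stood at −0.12, −0.25 and 2.61. The other tested lung lineage markers Sftpb, Abca3 and Sftpc stood at −0.27, −0.031 and 0.077. The part of vector replicate 2, of gene length and of these markers in the lean of the replication genes was not tested.

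**Figure D1:**
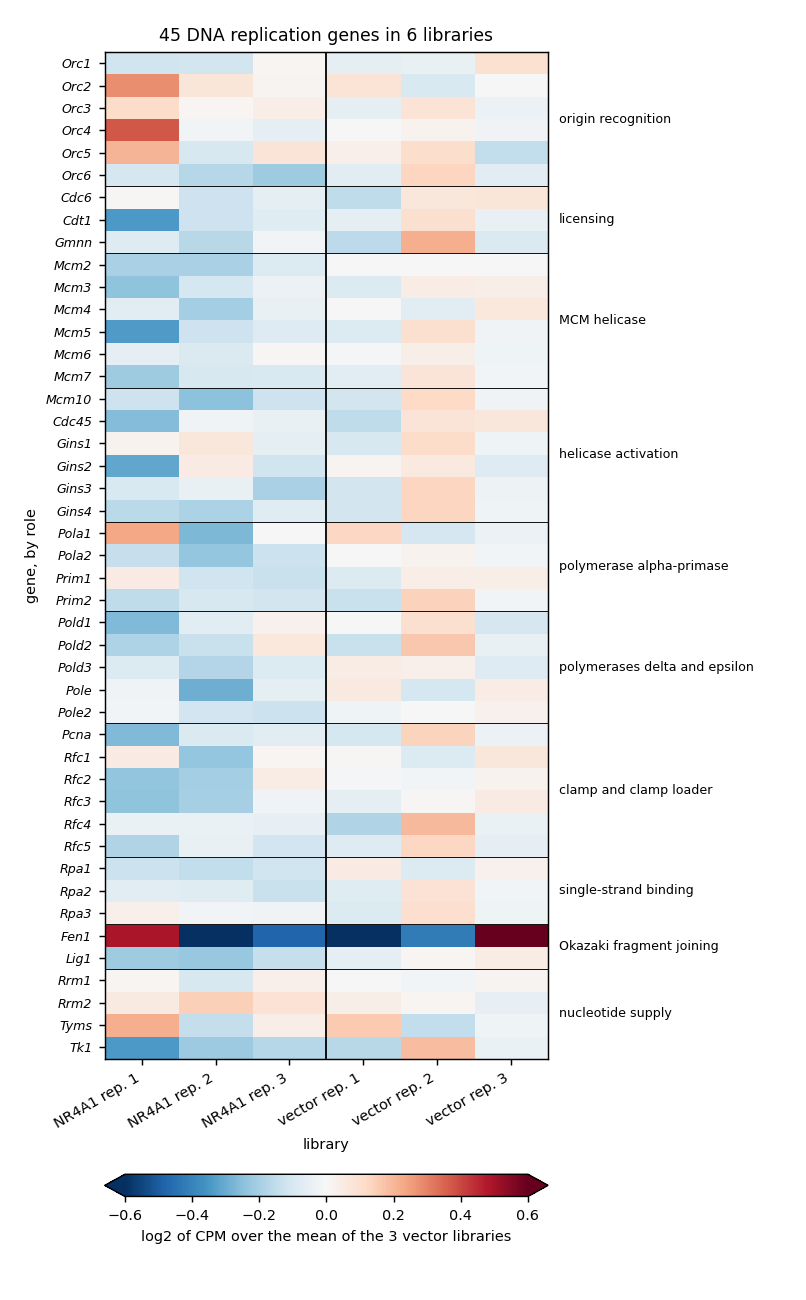
Heat map of the 45 replication genes (rows, by role) in the 6 libraries (columns), coloured by the log2 of the CPM over the mean of the 3 vector libraries; colours saturate at 0.6. Blue prevails in the NR4A1 columns, vector replicate 2 is the reddest column, and Fen1 is dark red in NR4A1 replicate 1 and vector replicate 3.

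**Figure D2:**
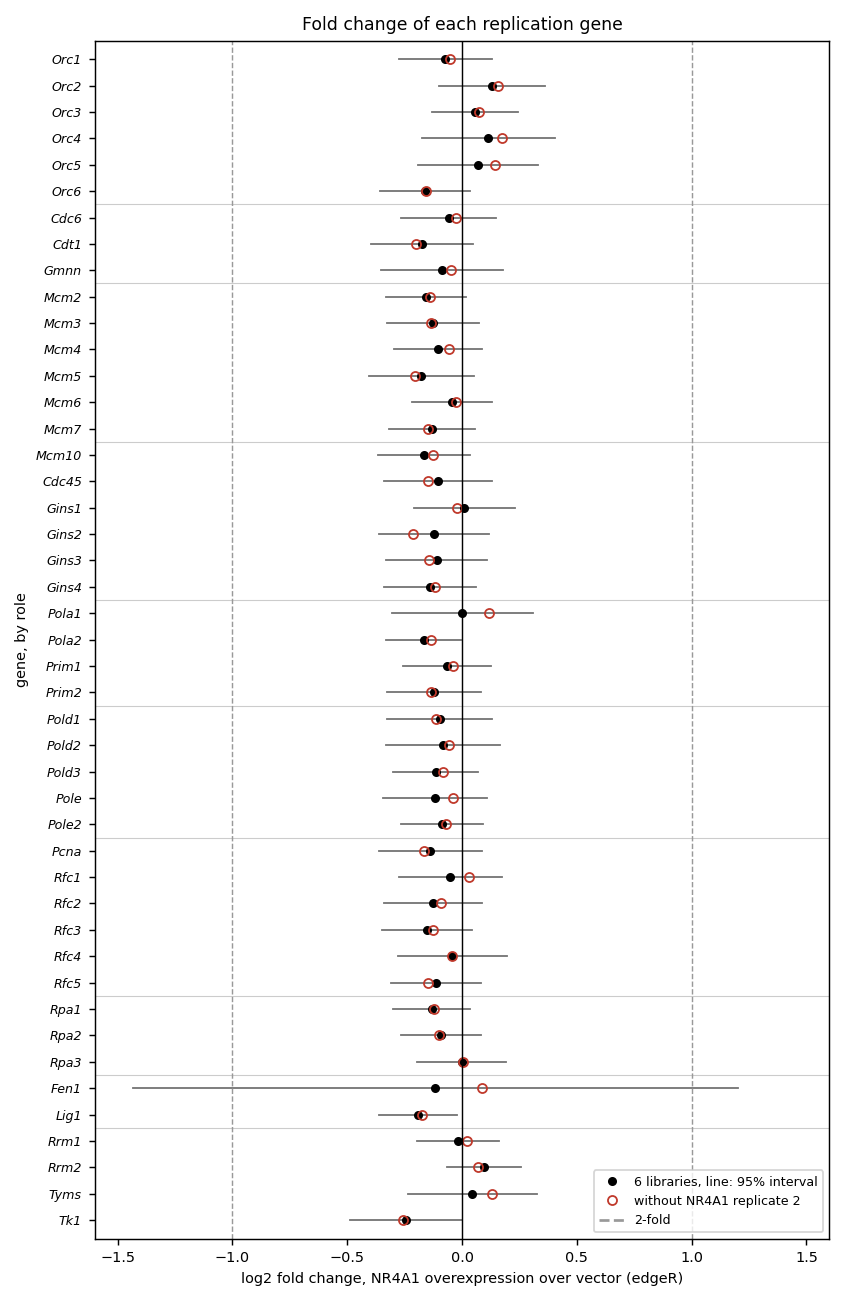
Log2 fold change of NR4A1 overexpression over vector for each of the 45 genes (filled points, with 95% intervals as lines) and the same value without NR4A1 replicate 2 (open circles); dashed lines mark a 2-fold change. Every interval but that of Fen1 lies between −0.49 and 0.40.

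The origin recognition complex was the group that leaned least to the lower side, since 4 of its 6 subunits had a log2 fold change above 0 and its median was 0.06. Orc6 (chr8:85299632-85308278), the smallest subunit, was lower in all 3 NR4A1 libraries, with 132, 126 and 122 CPM in NR4A1 replicates 1 to 3 and 135, 155 and 135 CPM in vector replicates 1 to 3. The groups did not overlap, and the log2 fold change was −0.16 ± 0.08 (SE, n = 3 per group), or −0.15 without NR4A1 replicate 2, and −0.093 without vector replicate 2. Orc1 stood at −0.073, while Orc2, Orc3, Orc4 and Orc5 stood at 0.13, 0.055, 0.11 and 0.070. Orc2 shares 26.7% of its 50-base pieces with the opposite strand of Nif3l1, whose reads can be told apart from its own only by strand. Orc4 was high in NR4A1 replicate 1 alone, with 72.3, 55.2 and 53.7 CPM in NR4A1 replicates 1 to 3 and 55.8, 56.6 and 55.1 CPM in vector replicates 1 to 3. In the vector controls Orc6 was also the most abundant subunit per length, at 86.3 ± 7.29 FPKM (SD, n = 3), which was 20.5 times the 4.22 ± 0.394 FPKM of Orc5. Their vector means in CPM were 142 and 31.7, so part of that ratio rests on the gene lengths behind the FPKM. Orc5 had 36.6, 29.7 and 33.5 CPM in NR4A1 replicates 1 to 3 and 32.4, 34.2 and 28.5 CPM in vector replicates 1 to 3, and the groups overlapped.

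Of the licensing factors, Cdt1 (chr8:122568015-122573128), which brings the MCM helicase to the origin, had 175, 204 and 211 CPM in NR4A1 replicates 1 to 3 and 214, 237 and 215 CPM in vector replicates 1 to 3. All 3 NR4A1 values were below the vector values, and the log2 fold change was −0.17 ± 0.10 (SE, n = 3 per group), or −0.20 without NR4A1 replicate 2, and −0.097 without NR4A1 replicate 1. Cdc6, the ATPase that works with CDT1, had 128, 117 and 122 CPM in NR4A1 replicates 1 to 3 and 114, 133 and 134 CPM in vector replicates 1 to 3, with overlapping groups and a log2 fold change of −0.059. Gmnn, whose product geminin inhibits CDT1, had a log2 fold change of −0.087. Per length, Cdt1 was the highest of the 3 in the vector controls at 102 ± 6.40 FPKM and Cdc6 the lowest at 13.3 ± 1.19 FPKM. In CPM, Cdc6 stood above Gmnn there, with means of 127 and 80.0.

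All 6 genes of the MCM2-7 helicase had a log2 fold change below 0, with a median of −0.13, and remained below 0 without NR4A1 replicate 2 (median −0.14). Mcm2 (chr6:88883474-88898780) had 407, 407 and 440.2 CPM in NR4A1 replicates 1 to 3 and 466, 466 and 468 CPM in vector replicates 1 to 3. The 3 vector values lay within a range of 2.02 CPM, the NR4A1 values lay below them, and the log2 fold change was −0.16 ± 0.07 (SE, n = 3 per group) with an adjusted p of 0.828 by edgeR, and −0.14 without NR4A1 replicate 2. Mcm7 (chr5:138164583-138172422) had 363, 393 and 395 CPM in NR4A1 replicates 1 to 3 and 401, 444 and 415 CPM in vector replicates 1 to 3, again without overlap, and a log2 fold change of −0.13 ± 0.08 (SE, n = 3 per group), or −0.15 without NR4A1 replicate 2. Gm5487, which is absent from the deposited table, holds 16.5% of the 50-base pieces of Mcm7 transcripts on the same strand. Mcm5 (chr8:75109528-75128439) had the most negative value of the 6, at −0.18 ± 0.10 (SE, n = 3 per group), or −0.20 without NR4A1 replicate 2. Its groups touched, with 351, 408 and 421 CPM in NR4A1 replicates 1 to 3 and 420.3, 475 and 438 CPM in vector replicates 1 to 3, since NR4A1 replicate 3 was just above vector replicate 1. Mcm3, Mcm4 and Mcm6 stood at −0.13, −0.10 and −0.044.

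The 6 helicase subunits enter the ring in equal numbers, yet their deposited FPKM did not stand at 1 level. In the vector controls Mcm5 was the highest at 131 ± 8.67 FPKM (SD, n = 3) and Mcm2 the lowest at 52.5 ± 0.218 FPKM, a ratio of 2.49. The order was Mcm5, Mcm4, Mcm6, Mcm7, Mcm3 and Mcm2, in which Mcm4 and Mcm6, and likewise Mcm3 and Mcm2, were closer than their SD. In the NR4A1 libraries the ratio was 2.46, and the order differed in that close pair, Mcm6 standing above Mcm4. Without scaling by length, Mcm2 stood at 467 ± 1.11 CPM and Mcm5 at 444 ± 27.7 CPM (SD, n = 3) in the vector controls. The ratio in FPKM therefore rests on the gene lengths that the authors used, which were not checked against the transcripts.

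Among the factors that activate the helicase, Mcm10 (chr2:4989714-5012791) had 124, 114 and 124 CPM in NR4A1 replicates 1 to 3 and 125, 147 and 133 CPM in vector replicates 1 to 3. The groups did not overlap, and the log2 fold change was −0.17 ± 0.09 (SE, n = 3 per group), or −0.13 without NR4A1 replicate 2, and −0.10 without vector replicate 2. Cdc45, the helicase cofactor, stood at −0.11. Of the 4 GINS subunits, Gins2, Gins3 and Gins4 stood at −0.12, −0.11 and −0.14, and Gins1 at 0.010. Gins2 shares 65.4% of its 50-base pieces with the opposite strand of Gse1. Gins4, the most abundant of this group per length (91.1 ± 8.12 FPKM in the vector controls), had 110.5, 108 and 117 CPM in NR4A1 replicates 1 to 3 and 114, 135 and 121 CPM in vector replicates 1 to 3, with overlapping groups. Mcm10 had the lowest FPKM, at 12.7 ± 1.07, although its vector mean of 135 CPM was above the 123 CPM of Gins4.

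The accessory subunit of DNA polymerase alpha, Pola2 (chr19:5940543-5964206), was 1 of the 2 members with an unadjusted p under 0.05. It had 169, 158 and 170.2 CPM in NR4A1 replicates 1 to 3 and 186, 189 and 184 CPM in vector replicates 1 to 3. The gap of 14.0 CPM between the groups was wider than the range within either group (11.8 CPM and 4.72 CPM), and the log2 fold change was −0.17 ± 0.07 (SE, n = 3 per group) with an adjusted p of 0.788 by edgeR, and −0.13 without NR4A1 replicate 2. Pola1, which encodes the catalytic subunit of the same enzyme, differed by 0.0016 (log2), with 258, 182 and 219 CPM in NR4A1 replicates 1 to 3 and 239, 205 and 214 CPM in vector replicates 1 to 3. The primase genes Prim1 and Prim2 stood at −0.065 and −0.12. Prim2 was the least abundant of the 4 per length, at 17.2 ± 1.72 FPKM in the vector controls compared with 65.3 ± 1.08 for Pola2, and had 93.7, 97.6 and 96.4 CPM in NR4A1 replicates 1 to 3 and 94.98, 115 and 103 CPM in vector replicates 1 to 3.

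All 5 genes of polymerases delta and epsilon had a log2 fold change below 0, between −0.12 for Pole and −0.083 for Pold2. Pold3 (chr7:100082111-100121565), an accessory subunit of polymerase delta, had 71.9, 67.4 and 71.9 CPM in NR4A1 replicates 1 to 3 and 78.5, 77.8 and 72.3 CPM in vector replicates 1 to 3. The groups did not overlap, although the gap between the highest NR4A1 and the lowest vector value was 0.352 CPM, and the log2 fold change was −0.11 ± 0.08 (SE, n = 3 per group), or −0.084 without NR4A1 replicate 2. Pold2 was the most abundant of the 5 per length, at 33.8 ± 3.72 FPKM in the vector controls, and had 79.6, 82.6 and 94.7 CPM in NR4A1 replicates 1 to 3 and 82.8, 101 and 88.0 CPM in vector replicates 1 to 3, with overlapping groups.

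All 6 genes of the sliding clamp and its loader were below 0 as well, with a median of −0.12, and 5 of 6 without NR4A1 replicate 2. Pcna (chr2:132249162-132253314), the clamp that holds the polymerases on DNA, had 324, 367 and 372 CPM in NR4A1 replicates 1 to 3 and 362, 427 and 381 CPM in vector replicates 1 to 3. The groups overlapped, and the log2 fold change was −0.14 ± 0.10 (SE, n = 3 per group), or −0.16 without NR4A1 replicate 2. It was −0.078 without NR4A1 replicate 1 and −0.067 without vector replicate 2. The pseudogene Pcna-ps2 holds 19.1% of the possible 50-base pieces of Pcna transcripts and had 2622 to 3531 counts. With the counts of both genes summed, the log2 fold change was −0.13. The loader subunit with the smallest p was Rfc3, with 90.9, 93.8 and 106 CPM in NR4A1 replicates 1 to 3 and 103, 108 and 111 CPM in vector replicates 1 to 3 and a log2 fold change of −0.15 ± 0.08 (SE, n = 3 per group), or −0.13 without NR4A1 replicate 2, and −0.23 without NR4A1 replicate 3. Rfc2, the lowest by FPKM at 15.01 ± 0.162 in the vector controls, had 96.4, 98.6 and 117 CPM in NR4A1 replicates 1 to 3 and 113, 112 and 115 CPM in vector replicates 1 to 3. Its vector mean of 114 CPM was above the 108 CPM of Rfc3. For Rfc3 and Rfc2 alike, NR4A1 replicate 3 was above the lowest vector library.

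Replication protein A coats the unwound strands. Its large subunit Rpa1 (chr11:75298166-75348324) had 163, 160.1 and 164 CPM in NR4A1 replicates 1 to 3 and 184, 168 and 181 CPM in vector replicates 1 to 3. The groups did not overlap, and the log2 fold change was −0.13 ± 0.07 (SE, n = 3 per group), or −0.12 without NR4A1 replicate 2. Rpa2 stood at −0.092. Rpa3, the smallest subunit and the most abundant of the 3 per length (47.2 ± 3.33 FPKM in the vector controls), had 64.8, 62.6 and 62.5 CPM in NR4A1 replicates 1 to 3 and 59.8, 68.0 and 62.3 CPM in vector replicates 1 to 3 and a log2 fold change of −0.0017.

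Lig1 (chr7:13277283-13311433), which encodes the ligase that seals Okazaki fragments, had the smallest p of the 45 members. It had 249.9, 247 and 263 CPM in NR4A1 replicates 1 to 3 and 278, 292 and 298 CPM in vector replicates 1 to 3. The highest NR4A1 value was below the lowest vector value, and the log2 fold change was −0.19 ± 0.07 (SE, n = 3 per group) with an adjusted p of 0.744 by edgeR, and −0.18 without NR4A1 replicate 2. Fen1 (chr19:10199132-10204169), the nuclease that trims the flap before ligation, varied more within the groups than any other member. It had 159.9, 73.2 and 81.5 CPM in NR4A1 replicates 1 to 3 and 68.5, 84.9 and 187 CPM in vector replicates 1 to 3. NR4A1 replicate 1 and vector replicate 3 were high and the other 4 libraries low, irrespective of the group. The log2 fold change was −0.12 ± 0.52 (SE, n = 3 per group), or 0.086 without NR4A1 replicate 2, with −0.55 (without NR4A1 replicate 1) and 0.45 (without vector replicate 3) as the extremes. The gene Gm10143 on the opposite strand holds 75.4% of the 50-base pieces of Fen1 transcripts and had 2 to 10 counts per library. Without Fen1, 36 of the 44 remaining members were below 0, with a median of −0.10.

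The enzymes of nucleotide supply did not share a direction. Tk1 (chr11:117815526-117826092), thymidine kinase 1, had the most negative fold change of the 45 members over the 6 libraries. It had 143, 156 and 161 CPM in NR4A1 replicates 1 to 3 and 162, 207 and 177 CPM in vector replicates 1 to 3. The groups did not overlap, but the gap between NR4A1 replicate 3 and vector replicate 1 was 0.816 CPM, and the log2 fold change was −0.24 ± 0.11 (SE, n = 3 per group), or −0.26 without NR4A1 replicate 2. Without vector replicate 2 it was −0.14, less negative than Lig1 at −0.19. Rrm2 (chr12:24708241-24714146), the regulatory subunit of ribonucleotide reductase that limits its activity in S phase, was the 1 member with all NR4A1 values above all vector values, with 149.6, 159 and 153 CPM in NR4A1 replicates 1 to 3 and 147, 145 and 139 CPM in vector replicates 1 to 3. Its log2 fold change was 0.10 ± 0.07 (SE, n = 3 per group), or 0.071 without NR4A1 replicate 2. Rrm1, the catalytic partner, had 131 ± 0.984 FPKM in the vector controls, level with Mcm5 (131 ± 8.67) as the highest of the 45 members. It had 524, 486 and 529 CPM in NR4A1 replicates 1 to 3 and 519.8, 513 and 524 CPM in vector replicates 1 to 3. Tyms, thymidylate synthase, was the least abundant of the 4 at 7.44 ± 0.788 FPKM and had 89.7, 69.9 and 79.4 CPM in NR4A1 replicates 1 to 3 and 86.2, 69.5 and 75.8 CPM in vector replicates 1 to 3. The groups of both genes overlapped.

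**Figure D3:**
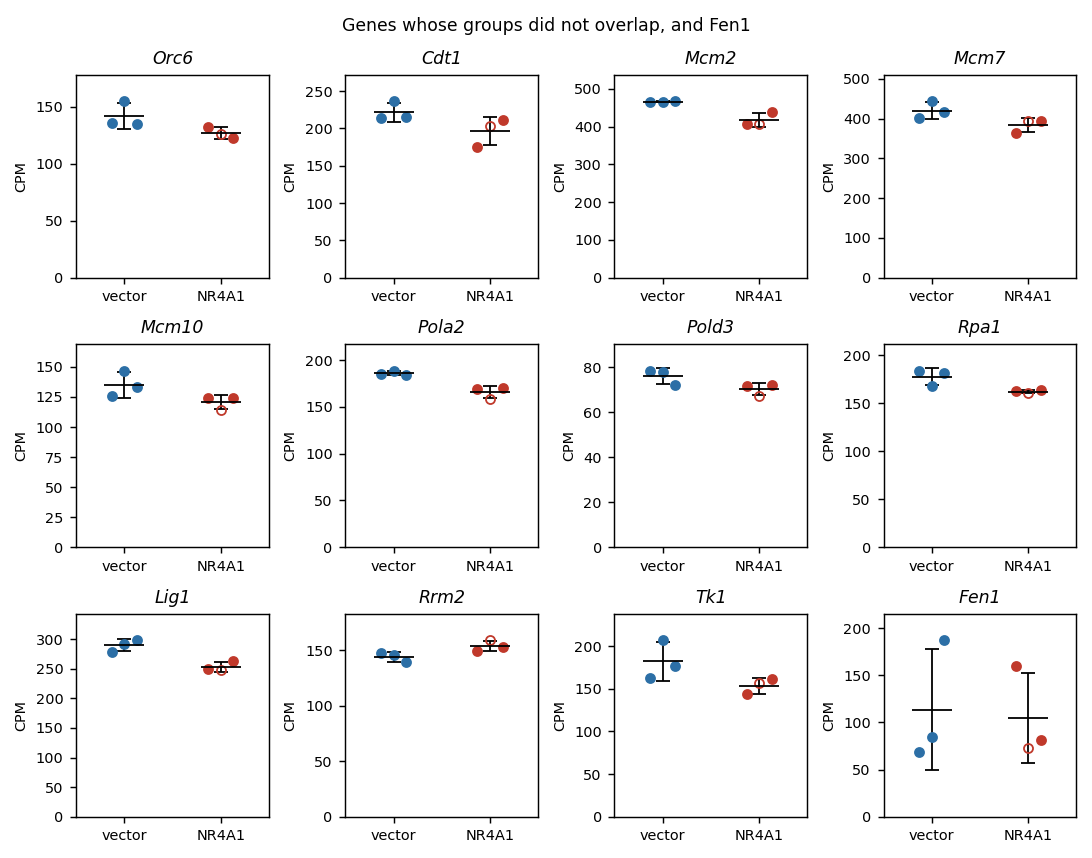
CPM (linear axes from 0) in the 3 vector libraries (blue) and the 3 NR4A1 libraries (red, replicate 2 open) for the 11 members whose groups did not overlap, and for Fen1; bars mark the mean and SD. The groups are close in every panel, and Fen1 has 1 high library in each group.

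By the deposited FPKM, the replication genes were well expressed in both groups. The median member stood at 27.1 FPKM in the vector controls, compared with 5.87 over the tested genes, and 43 of the 45 lay above that median of the tested genes. The members ranged from 4.22 FPKM for Orc5 to 131 for Rrm1 and Mcm5. These levels and their orders depend on the gene lengths behind the FPKM, which were not checked against the transcripts. Within 9 of the 10 role groups the order of levels was the same in the NR4A1 libraries as in the vector libraries, the MCM helicase being the exception. Of the other neighbours in these orders, Rfc5 and Rfc3 were closer than their SD.

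**Figure D4:**
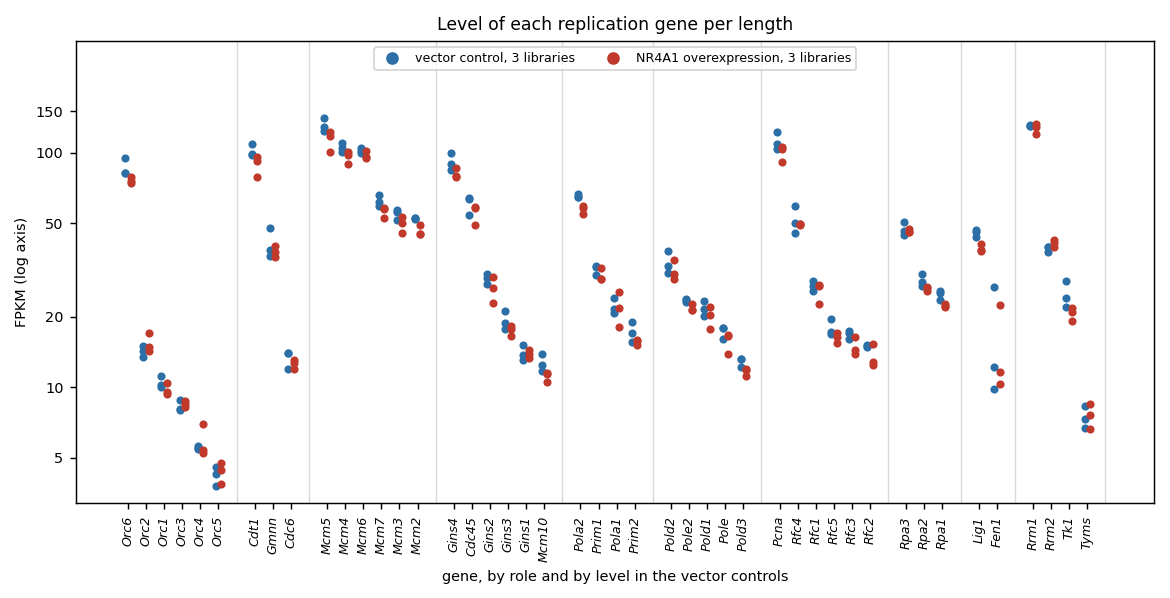
FPKM (log axis) of each of the 45 genes in the 3 vector libraries (blue) and the 3 NR4A1 libraries (red), arranged by role and by level. Within the origin recognition complex Orc6 stands far above the other subunits, and for every gene the colours overlap or lie side by side.

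A further 44 genes of replication, outside the 45, also leaned to the lower side with all libraries, but less so without NR4A1 replicate 2. They comprise kinases and factors of origin firing, fork protection proteins, further polymerase and MCM subunits, primer removal enzymes, alternative clamp loaders, histone chaperones, topoisomerases, the methylation maintenance proteins, further nucleotide enzymes and regulators of licensing. None passed an adjusted p under 0.05 in edgeR's test, while 1 was higher and 1 lower at an unadjusted p under 0.05. The log2 fold change was below 0 for 37 of 44, with a median of −0.08, and for 30 of 44, with a median of −0.05, without NR4A1 replicate 2. The groups did not overlap for 7 genes on the lower side (all genes 6.22%) and 1 on the higher side (all genes 6.69%), and without NR4A1 replicate 2 for 7 (all genes 13.8%) and 5 (all genes 13.7%).

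The gene with the smallest p in each of these lists shows the range. Dctd, the deaminase that makes dUMP, was the lower gene, with 9.80, 9.65 and 13.1 CPM in NR4A1 replicates 1 to 3 and 16.3, 16.6 and 16.5 CPM in vector replicates 1 to 3. Its log2 fold change was −0.60 ± 0.14 (SE, n = 3 per group) with an adjusted p of 0.308 by edgeR, and −0.52 without NR4A1 replicate 2. Skp2, the ubiquitin ligase subunit that directs CDT1 to degradation, was the higher gene, with 62.5, 54.3 and 55.0 CPM in NR4A1 replicates 1 to 3 and 52.7, 25.7 and 34.4 CPM in vector replicates 1 to 3. Its log2 fold change was 0.61 ± 0.25 (SE, n = 3 per group) with an adjusted p of 0.786 by edgeR, and 0.64 without NR4A1 replicate 2. The vector values of Skp2 spread widely, and the highest of them was close to the lowest NR4A1 value. Chaf1a, a subunit of the histone chaperone that follows the fork, stood at −0.17 ± 0.08 (SE, n = 3 per group), or −0.16 without NR4A1 replicate 2. Rnaseh2a stood at −0.20, Donson at −0.18, Tipin at −0.13, Chtf18 at −0.16, Dnmt1 at −0.15, Top1 at 0.14, Pold4 at −0.074 and Mcm8 at −0.058.

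The transcription factors that act on these genes, and the genes of mitosis, had medians nearer to 0. Of 13 E2F, DP and retinoblastoma genes, 8 were below 0, with a median of −0.02, and without NR4A1 replicate 2 the count was 5, with a median of 0.03. E2f5, a repressor E2F, had the smallest p of these, with 23.7, 23.5 and 21.7 CPM in NR4A1 replicates 1 to 3 and 18.2, 19.3 and 20.4 CPM in vector replicates 1 to 3. Its log2 fold change was 0.25 ± 0.10 (SE, n = 3 per group) with an adjusted p of 0.746 by edgeR, and 0.23 without NR4A1 replicate 2. E2f1, an activator of S phase genes, stood at −0.021. Of 18 mitosis genes, 15 were below 0 (83.3%, compared with 82.2% of the 45 members), with a median of −0.06, and without NR4A1 replicate 2 the count was 10, with a median of −0.03. The groups did not overlap for 2 of the 18 on the lower side (all genes 6.22%) and 0 on the higher side (all genes 6.69%). Without NR4A1 replicate 2 these counts were 3 (all genes 13.8%) and 1 (all genes 13.7%). Aurkb, a mitotic kinase, had the smallest p among them, with a log2 fold change of −0.19 ± 0.09 (SE, n = 3 per group) with an adjusted p of 0.812 by edgeR, and −0.18 without NR4A1 replicate 2. Mki67, a marker of cycling cells, stood at −0.091. None of the 13 or of the 18 genes passed an adjusted p under 0.05, and whether the replication genes leaned further than the mitosis genes was not tested.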

How the data were processed

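RNA of 3 NR4A1 overexpression and 3 vector libraries was analysed, grouped by the treatment label. The authors deposited 1 table in which each gene has, for every library, a read count and an FPKM, the latter scaled by the authors to gene length and library total. The submitters' processing notes name HISAT2 2.0.4 and the build GRCm38.p4, and the study's methods name strand-specific libraries. The counting program and its strand setting are not given in the sources used here.

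The 45 members and all gene lists (further replication genes, E2F and retinoblastoma genes, mitosis, cell type markers) were chosen with earlier results of these data known. From the counts, genes were filtered with filterByExpr, scaled with TMM factors and tested with edgeR 4.0.16 (quasi-likelihood, robust, R 4.3.3), with Benjamini-Hochberg adjustment over all 12941 genes. CPM are counts per 1000000 after TMM scaling. The standard error is the log2 fold change divided by the square root of F, and intervals are at 95%. FPKM were used to compare levels between genes. The gene lengths behind them are not given, and the counts and FPKM imply a median of 5818 bases for the members. A heat map ratio had 0.5 CPM added. The study called genes at 2-fold and p under 0.05, which were kept here as call rules with an adjusted p. Members were described in every library where their groups did not overlap, where their p was the smallest of a role group, and where their FPKM was the highest or lowest. Orc4, Pola1, E2f1 and Mki67 were named after their values were seen. Alternatives were median-ratio factors, library totals, other filters (none, or a mean of at least 10 counts), DESeq2 1.42.0, limma-voom and limma 3.58.1 on log2(FPKM + 1) and log2(FPKM + 0.1) with a mean FPKM of at least 1, the replicate number as a block, and each library left out. Robust estimation turned off and Pcna summed with Pcna-ps2 were chosen after seeing the data. Chi-square values per degree of freedom between libraries of a group were 9.36 to 41.8, so none repeats another. Shared sequence was counted in 50-base stretches of GENCODE M21 transcripts, and promoters are from RefSeq (GRCm38.p6). Figures were drawn with matplotlib 3.10.9. The totals of 15019038 to 17574340 counts put 3 counts at 0.171 to 0.200 CPM, and the precision covers counting error and the spread of 3 libraries.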

Additional observations from a re-analysis of the deposited data

How the results depend on the processing

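The count of 0 members past an adjusted p of 0.05 in either direction, and the count of 0 higher members at an unadjusted p under 0.05, held under all 17 alternatives run for them, and the smallest adjusted p of a member ranged from 0.355 with DESeq2 to 0.998. The median log2 fold change stayed below 0, between −0.13 and −0.07, and the number of members below 0 was between 30 and 41. The count of lower members at an unadjusted p under 0.05, 2 at first, was 4 with DESeq2, 4 with limma on log2(FPKM + 1) and 4 on log2(FPKM + 0.1), and it was 0 to 3 when 1 library was left out. Apart from the fit without NR4A1 replicate 2, the share of all genes past that p was not computed for the alternatives. The counts therefore cannot be read as more or fewer than all genes would give. With library totals in place of TMM factors, the groups did not overlap for 0 members on the higher side (all genes 5.66%) and 13 on the lower side (all genes 7.63%). Leaving out 1 library gave 10 to 22 members without overlap on the lower side, with the most without vector replicate 1 (all genes 11.2%), and 1 to 3 on the higher side, with 3 without vector replicate 2 (all genes 11.7%). Without NR4A1 replicate 3 the lower count was 19 (all genes 12.0%).

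Replicate numbers are shared by both groups, but the labels do not say that they mark shared cultures. Same-numbered libraries deviated together with correlations of 0.02, 0.05 and 0.18 over all tested genes and of −0.29, 0.66 and −0.48 over the 45 members, and 1 of the 3 numbers was its own best match. With the replicate block the count at an unadjusted p under 0.05 was 7 lower members, with a smallest adjusted p of 0.363, and in the paired fit without both libraries numbered 2 it was 0, with 30 of 45 members below 0. The share of all tested genes past that p was not computed for either fit, so these counts cannot be set against it. Fen1 changed sign, at 0.0042 in that paired fit and between −0.55 and 0.45 when 1 library was left out, its 2 high libraries being 1 of each group. The other 14 genes with a fold change followed across alternatives kept their sign. They were Nr4a1, Pcna, Rfc3 and the 11 members whose groups did not overlap. Groups that do not overlap can hardly change sign when 1 library is left out, so this was largely fixed by the choice of genes. Over all 45 members the number below 0 ranged from 30 to 41. A difference of the size of that of Lig1, −0.19 on the log2 scale, did not pass the adjusted test in any of the alternatives.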

Other observations

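Among the E2F partners, Tfdp2, which encodes a dimerization partner of E2F proteins, varied between libraries in a manner unlike the replication genes. It was picked out after its values were seen. Tfdp2 had 94.9, 211 and 265 CPM in NR4A1 replicates 1 to 3 and 72.3, 225 and 56.1 CPM in vector replicates 1 to 3, so 3 libraries were high and 3 low across both groups. Its log2 fold change was 0.69 ± 0.70 (SE, n = 3 per group). Tfdp1, the more abundant partner, stayed between 348 and 384 CPM in all 6 libraries.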
